A study of Rattus norvegicus with 6 samples.

Results

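The genes described here are 6 glial genes, S100b, Pmp22, Mbp, Cnp, Cspg4 and Gfap, chosen by exact match of their symbols among the 20653 genes of a bulk RNA sequencing study of rat cells. All 6 had a row, and 4 of them (S100b, Pmp22, Cnp and Cspg4) had enough reads to be tested. The study comprises 3 libraries of cells named EMSC and 3 of cells named NPS-EMSC. Both are primary mesenchymal stem cells of the nasal mucosa with the genotype given as SD, and the series title describes stem cells that overexpress neuropeptide S, a secreted peptide. The labels give no age, no time in culture and no control vector for EMSC, and do not say whether NPS-EMSC is a clone or a mixed population. Nothing in them says that the 3 libraries of a group came from separate animals or cultures, so the p-values measure only the spread between these libraries. The peptide's own effect and that of introducing its gene cannot be told apart.

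Myelin is the stack of glial membrane that insulates axons, made by Schwann cells in peripheral nerves and by oligodendrocytes in the brain and spinal cord. Its compact layers are held together by proteins such as PMP22 and myelin basic protein (Mbp), and the cytoplasm-filled channels at its edges hold the enzyme CNP. S100B and GFAP are used as markers of Schwann cells and astrocytes, and the proteoglycan NG2 (Cspg4) as a marker of oligodendrocyte precursors and of pericytes, the contractile cells that wrap capillaries. None of the genes is confined to glia, and nasal mucosa contains the Schwann-related ensheathing glia of the olfactory nerve.

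The libraries held 39082245 to 40261205 counted reads. Nps, the gene of the overexpressed precursor, had 93566, 77014 and 85916 reads in NPS-EMSC and 0, 0 and 10 in EMSC, as the labels say. Of 14505 genes tested, 59.3% were called at an adjusted p under 0.05 (edgeR), 29.7% higher and 29.5% lower in NPS-EMSC. In 64.7% of them the values of the groups did not overlap. Correlations of log2 CPM (counts scaled by TMM to a common library size) were 0.989 to 0.990 within a group and 0.935 to 0.943 between groups.

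Sox10, Mag, Erbb3 and Mog, markers of myelinating glia and their lineage, were near the limit of detection in both groups. Sox10, the transcription factor that specifies the Schwann and oligodendrocyte lineages, had 1, 5 and 1 reads in the EMSC libraries and 0, 4 and 2 in NPS-EMSC. Mag, the myelin-associated glycoprotein gene, had 1 read over all libraries. Erbb3, the neuregulin receptor of Schwann cells, had 4 to 17 reads in EMSC and 1 to 11 in NPS-EMSC (adjusted p = 0.418), and Mog, an oligodendrocyte surface protein gene, had 7 to 15 and 0 to 11 (adjusted p = 0.337). Olig1, Olig2 and the astrocyte water channel gene Aqp4 had no row in the tables used here. Not all defining markers were this low: in EMSC, Egr2 had 661 to 900 reads and Ngfr 23 to 64, as described further below. The 6 genes were thus measured in cells whose RNA held only traces of Sox10, Mag, Erbb3 and Mog. They are described below as single genes and not as signs of glial cells, whose presence was not tested. The fibroblast and mesenchyme markers, of which 5 rose and 7 fell among 12 tested, summed to 7855 to 8627 FPKM (reads scaled by gene length and library size) in EMSC and 6464 to 6634 in NPS-EMSC.

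Of the 6 genes, 3 fell, 1 rose and 2 were too low to be tested, which is 4 called of 4 tested beside a background of 59.3%. S100b fell 3.94-fold, Pmp22 1.33-fold and Cnp 1.12-fold, while Cspg4 rose 1.91-fold. Mbp and Gfap had at most 12 reads in any library.

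**Figure D1:**
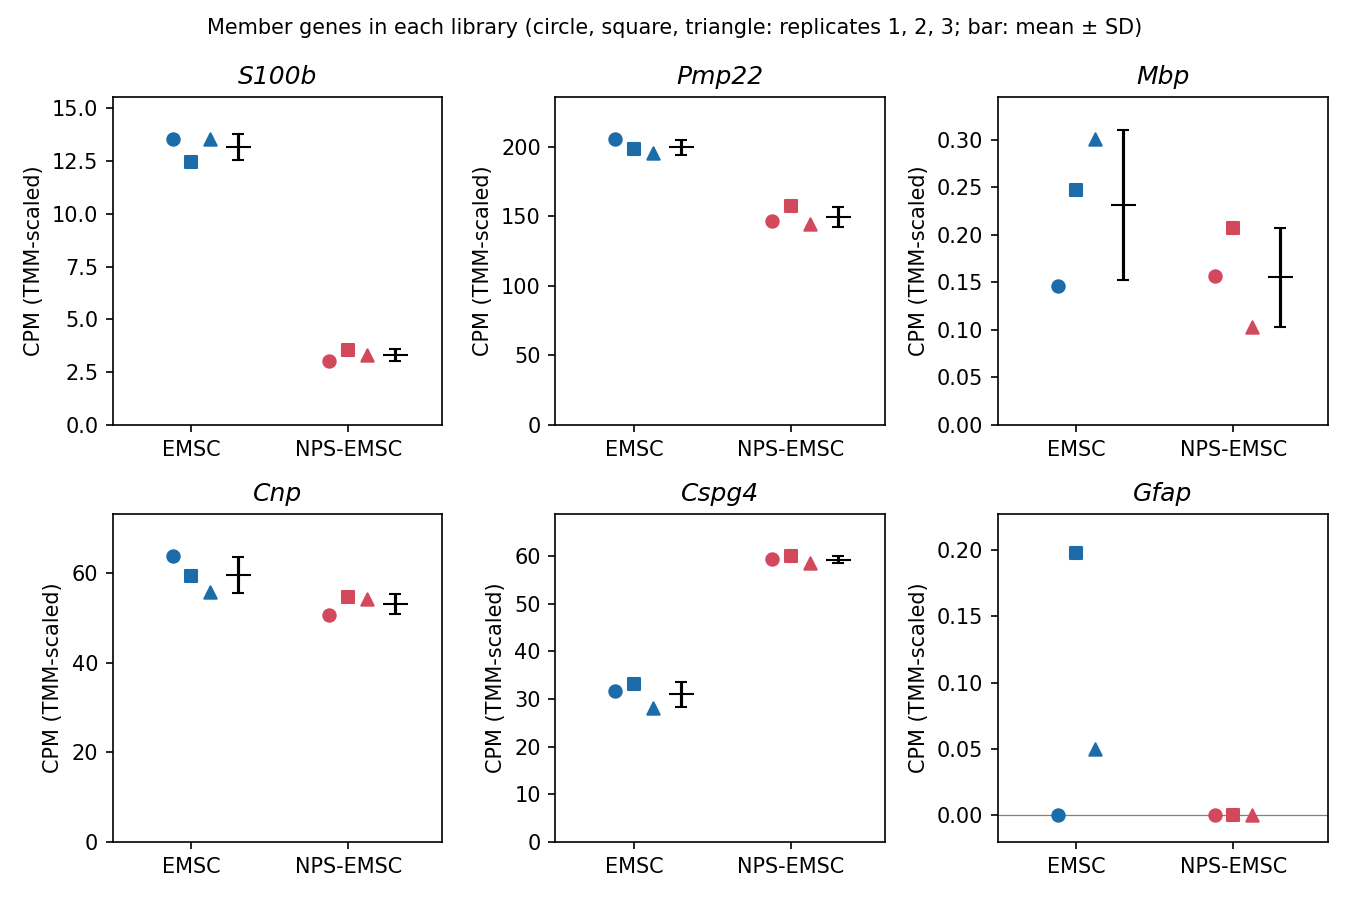
CPM of the 6 genes (vertical axes, linear, a different range in each panel) in the EMSC (blue) and NPS-EMSC (red) libraries. Symbols are single libraries and bars the mean ± SD of 3, not drawn for Gfap. S100b falls from a mean of 13.2 to 3.30 CPM and Cspg4 rises from 30.9 to 59.2, whereas the groups overlap for Mbp and Gfap.

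The sequence before the start of each gene is shown for the 4 tested genes, 3 that fell and 1 that rose, with short letter runs that factors of the Schwann cell program can bind. Each is the 250 bases before the RefSeq start in rat assembly GRCr8, 5′ to 3′ on the gene's strand. All 6 genes were found in the RefSeq promoter table. Capitals mark GGAATG (TEAD), ACAAAG (SOX) and GGGCGG (SP), on either strand. No window held GCGNGGGCG (EGR), and no marked runs overlap.
S100b, chr20:12381082-12381331, minus strand: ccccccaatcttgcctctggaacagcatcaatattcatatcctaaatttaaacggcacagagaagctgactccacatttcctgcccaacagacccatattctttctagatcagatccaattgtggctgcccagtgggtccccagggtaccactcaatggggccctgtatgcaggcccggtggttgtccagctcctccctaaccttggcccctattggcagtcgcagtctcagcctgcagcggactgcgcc
Pmp22, chr10:48294682-48294931, plus strand: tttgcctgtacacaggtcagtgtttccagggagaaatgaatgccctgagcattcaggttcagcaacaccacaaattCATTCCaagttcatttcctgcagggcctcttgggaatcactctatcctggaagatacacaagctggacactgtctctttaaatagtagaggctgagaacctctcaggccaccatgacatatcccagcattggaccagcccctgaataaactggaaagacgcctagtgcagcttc
Cnp, chr10:86011254-86011503, plus strand: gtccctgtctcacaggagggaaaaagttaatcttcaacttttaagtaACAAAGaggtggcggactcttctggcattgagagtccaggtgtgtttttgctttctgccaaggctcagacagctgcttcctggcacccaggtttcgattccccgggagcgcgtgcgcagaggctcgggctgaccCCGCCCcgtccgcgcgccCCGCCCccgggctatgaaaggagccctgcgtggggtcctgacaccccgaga
Cspg4, chr8:66160692-66160941, plus strand: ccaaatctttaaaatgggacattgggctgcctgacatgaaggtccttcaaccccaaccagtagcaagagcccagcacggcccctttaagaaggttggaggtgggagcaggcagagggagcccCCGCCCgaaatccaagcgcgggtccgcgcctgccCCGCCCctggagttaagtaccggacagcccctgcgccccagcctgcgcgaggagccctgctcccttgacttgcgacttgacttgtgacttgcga
The Pmp22 window holds the TEAD letters once, read on the opposite strand as CATTCC at -174 to -169 from the start, and 12.1% of all 33469 promoter windows of this length hold them. The Cnp window holds the SOX letters once at -203 to -198, and 16.3% of windows hold them. Both the Cnp and the Cspg4 window hold the SP letters at 2 places, and 30.5% of windows hold them at least once. The S100b window holds none of the 4 runs, and the EGR letters occur in 4.29% of windows. Cnp and Cspg4 have 16 and 14 CpG pairs, S100b has 5 and Pmp22 has 1. G and C make up 60.4% in Cnp, 62.0% in Cspg4, 54.8% in S100b and 48.0% in Pmp22. The median over all windows is 5 CpG pairs and 51.2% G and C. A match of letters does not show that a factor binds, and the start used in these cells was not measured. Pmp22 is known to have alternative promoters, of which the table holds a single one.

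S100b encodes a small calcium-binding protein that glia both use inside the cell and secrete. It had 557, 504 and 540 reads in EMSC and 116, 138 and 129 in NPS-EMSC, which is 13.5, 12.5 and 13.5 CPM against 3.03, 3.57 and 3.31. Every EMSC library lay far above every NPS-EMSC library. From 13.2 ± 0.611 to 3.30 ± 0.269 CPM (SD, n = 3), the log2 fold change was -1.98 (SE 0.14, edgeR adjusted p = 4.96e-12), and 2.49% of all tested genes had a change as low or lower. In GRCr8, S100b overlaps Dip2a, a gene that itself fell by 0.38 on the log2 scale (SE 0.06). With no strand setting given for the counts, reads of the shared stretch cannot be assigned to one gene, though the change of S100b was the larger.

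Pmp22 encodes peripheral myelin protein 22, a small membrane protein whose gene dosage is altered in the inherited neuropathy Charcot-Marie-Tooth disease, and which was first found as a gene of growth-arrested fibroblasts. It was by far the most abundant of the 6, with 205, 198 and 195 CPM in EMSC and 146, 157 and 145 in NPS-EMSC. All NPS-EMSC libraries lay below all EMSC libraries. Means were 199 ± 5.20 and 150 ± 6.95 CPM (SD, n = 3), a log2 fold change of -0.42 (SE 0.05, edgeR adjusted p = 3.11e-08). This is a smaller shift than the median of 0.52 among called genes in absolute log2 terms. In GRCr8 Pmp22 overlaps LOC134480805, a long noncoding RNA gene without a row under that symbol.

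Cnp encodes the enzyme 2′,3′-cyclic nucleotide 3′-phosphodiesterase, which keeps the cytoplasmic channels of myelin open and is also made at lower levels outside the nervous system. Its level was 63.8, 59.4 and 55.7 CPM in EMSC and 50.6, 54.6 and 54.1 in NPS-EMSC. The groups did not overlap, but the lowest EMSC and the highest NPS-EMSC library differed by little more than 1 CPM. Means were 59.6 ± 4.04 and 53.1 ± 2.18 CPM (SD, n = 3), a log2 fold change of -0.17 (SE 0.06, edgeR adjusted p = 0.0207). This call rested on single libraries: without EMSC replicate 1 the adjusted p was 0.115 (log2 fold change -0.12), and without NPS-EMSC replicate 1 it was 0.111 (-0.13). In the other alternatives at the same threshold it was 0.00505 to 0.0466.

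Mbp encodes myelin basic protein, which zips the inner faces of the myelin membrane together. The same gene also gives the Golli transcripts, which are made in immune cells and other cells without myelin from an upstream start, and RefSeq lists 2 starts for it. Gene-level counts do not separate the forms. In GRCr8 Mbp also overlaps LOC108348833, a long noncoding RNA gene without a row under that symbol. With no strand setting given, reads of a shared stretch cannot be assigned to one gene. Mbp had 6, 10 and 12 reads in EMSC and 6, 8 and 4 in NPS-EMSC, so the groups overlapped. The totals of 28 and 18 reads give a ratio of 1.53 with a 95% counting interval of 0.817 to 2.94, which covers counting error only. The exact two-sided permutation test over libraries gave p = 0.3, where 0.1 is the smallest that 3 against 3 allows. A change of Mbp was not detectable at this depth.

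Gfap encodes glial fibrillary acidic protein, the intermediate filament of astrocytes, which non-myelinating Schwann cells also make. It had 0, 8 and 2 reads in EMSC and 0 in all NPS-EMSC libraries. With the 10 EMSC reads taken as exact, the EMSC level lay 3.28-fold above a floor of 3 counts over the NPS-EMSC group. This value leaves out the counting error of the 10 reads and sets no lower limit. Of these reads 8 came from EMSC replicate 2, and without that library both groups were under the floor. A count of 0 over the NPS-EMSC libraries allows a level of up to 0.0259 CPM. The exact two-sided permutation test gave p = 0.4, and with no low-count filter the edgeR adjusted p was 0.0611 for Gfap and 0.655 for Mbp. One EMSC library was as empty of Gfap as the NPS-EMSC libraries.

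Cspg4 encodes NG2, a large proteoglycan of the cell surface that binds matrix and growth factors and is carried by progenitor glia, pericytes and many cultured mesenchymal cells. It had 31.6, 33.1 and 28.1 CPM in EMSC and 59.3, 59.9 and 58.5 in NPS-EMSC. The 3 NPS-EMSC libraries lay close together, with a coefficient of variation of 1.18%, against 8.20% in EMSC. Means of 30.9 ± 2.54 and 59.2 ± 0.700 CPM (SD, n = 3) correspond to a rise of 0.94 on the log2 scale (SE 0.07, edgeR adjusted p = 5.28e-12), and 92.7% of tested genes had a change as low or lower. In GRCr8 Cspg4 overlaps Cimap1c, matched here under its older symbol Odf3l1, with 28 to 37 reads in EMSC and 44 to 56 in NPS-EMSC. These are few beside the 1123 to 2318 reads of Cspg4.

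Per length, in the FPKM values the authors deposited, Pmp22 stood highest and Gfap lowest in both groups. In EMSC the order was Pmp22 at 94.3 ± 3.24 FPKM (SD, n = 3), Cnp at 24.7 ± 1.84, S100b at 8.16 ± 0.456, Cspg4 at 3.89 ± 0.307, Mbp at 0.0648 ± 0.0218 and Gfap, listed at 0, 0.0590 and 0.0151. Each neighbouring pair was separated over its 3 libraries except Mbp and Gfap. In NPS-EMSC Pmp22 stood at 68.6 ± 3.49 FPKM and Cnp at 21.4 ± 0.997, and the next places were exchanged, with Cspg4 at 7.22 ± 0.107 above S100b at 1.98 ± 0.173. No neighbouring pair overlapped there. The ratio of Cspg4 to S100b within a library was 0.474, 0.538 and 0.422 in EMSC and 3.97, 3.41 and 3.58 in NPS-EMSC. That of Pmp22 to Cnp moved far less, from 3.82 ± 0.163 to 3.21 ± 0.143. Averaged over the libraries, Pmp22 ranked at the 96.0th percentile of all genes by FPKM, Cnp at the 85.9th, Cspg4 at the 63.4th, S100b at the 61.0th, Mbp at the 26.6th and Gfap at the 12.8th.

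**Figure D2:**
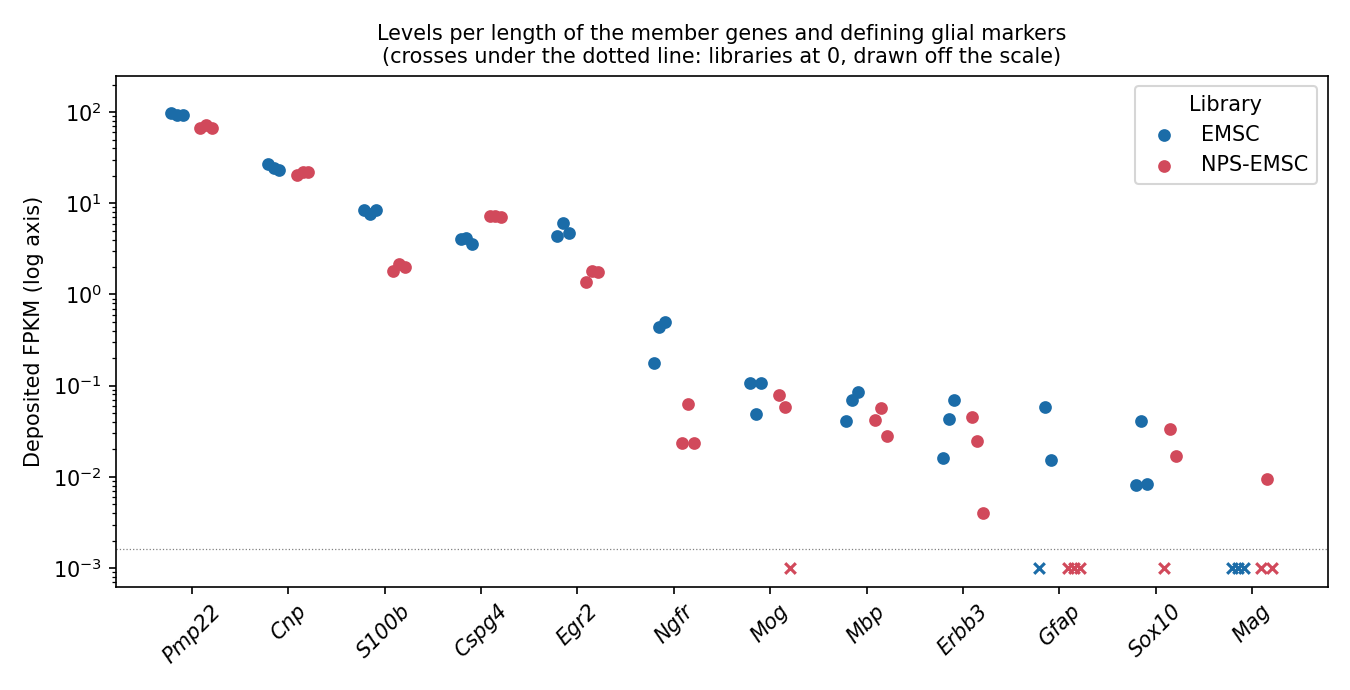
Deposited FPKM (vertical log axis) of the 6 genes and of 6 defining glial markers in each EMSC (blue) and NPS-EMSC (red) library, with libraries at 0 drawn as crosses below the scale. Pmp22, Cnp, S100b and Cspg4 lie between 1.81 and 98.0 FPKM, while Sox10, Mog, Erbb3, Mbp, Gfap and Mag all lie under 0.2.

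The glial markers Egr2 and Ngfr both fell. Egr2, the transcription factor that turns on peripheral myelin genes but also responds to growth factors in other cells, had 661, 900 and 693 reads in EMSC and 199, 260 and 258 in NPS-EMSC, a fall of 2.99-fold. Ngfr, the low-affinity neurotrophin receptor of immature Schwann cells and neural crest cells, had 23, 58 and 64 reads against 3, 8 and 3. For neither gene did the groups overlap. Ngfr had a log2 fold change of -2.87 (SE 0.53, edgeR adjusted p = 4.62e-05) and Egr2 one of -1.58 (SE 0.14, edgeR adjusted p = 3.66e-10), beside -1.98 for S100b.

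In the Schwann lineage list, which includes Sox10, Erbb3 and Ngfr, genes moved in both directions. Of 20 listed, 12 were tested, 6 of which fell, 3 rose and 3 did not pass (median log2 fold change -0.80, against -0.0048 over all genes tested). Called genes were 75% of those tested, beside 59.3% of all genes tested (29.7% higher and 29.5% lower). The same background stands beside the counts of the lists below. Lgi4, a secreted protein gene needed for axon sorting by Schwann cells, had the lowest log2 fold change of the tested genes in the list, -4.60 (SE 0.30), with 10.8 ± 1.75 CPM in EMSC and 0.396 ± 0.301 in NPS-EMSC (SD, n = 3). Tfap2a, a neural crest transcription factor, rose 2.49-fold and Adgrg6, the adhesion receptor GPR126 that starts myelination in Schwann cells, rose 2.23-fold from 11.3 ± 0.875 CPM. Summed over the list, the level was 26.4 to 29.4 FPKM in EMSC and 26.0 to 27.8 in NPS-EMSC, so these groups overlapped.

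Peripheral myelin genes fell more often than they rose. Of 22 listed, 14 were tested, and 8 fell, 4 rose and 2 did not pass (median log2 fold change -0.89). This is 85.7% called, beside 59.3% of all genes tested. Cldn11, a tight junction gene of central myelin and of other barrier-forming cells, fell 12.9-fold from 167 ± 10.2 CPM. Drp2 and Prx, whose products form a complex at the Schwann cell surface, fell 4.17-fold and 2.96-fold. The 4 that rose, named after their values were seen, were the tetraspanin genes Cd9 and Cd82, the lipid phosphatase gene Mtmr2 and Litaf, with log2 fold changes of 0.35, 0.16, 0.34 and 0.40. All of these are broadly expressed genes. In the oligodendrocyte list, 6 of 16 genes were tested, 4 fell and 2 did not pass (median -1.70). Enpp6, a choline phosphodiesterase gene of newly formed oligodendrocytes, had 32.3 ± 1.65 CPM in EMSC and 2.19 ± 0.447 in NPS-EMSC (SD, n = 3), a log2 fold change of -3.85 (SE 0.12), and Tmem98 fell 1.87-fold.

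**Figure D3:**
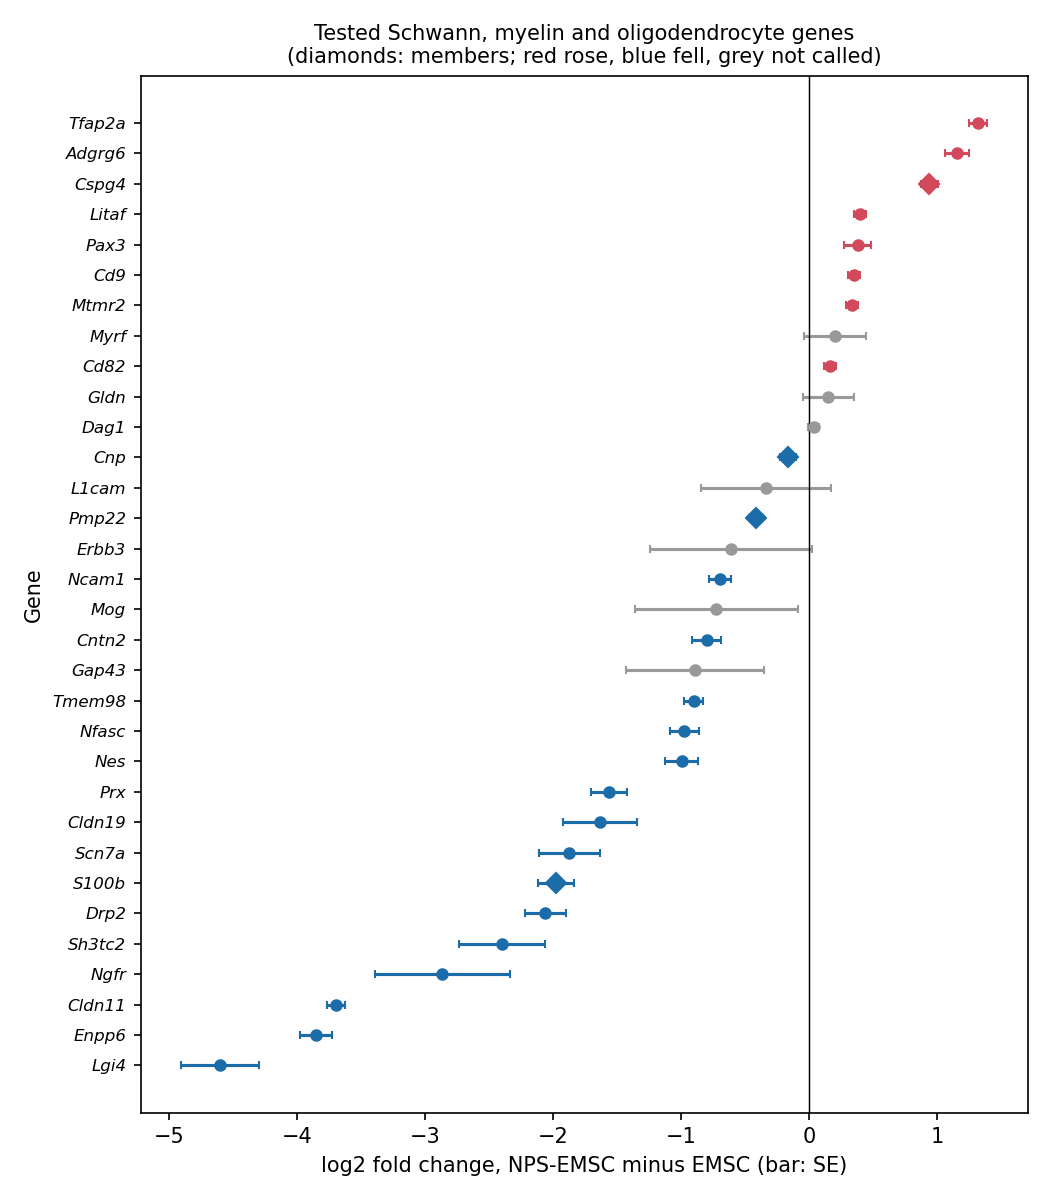
Log2 fold changes, NPS-EMSC minus EMSC, of tested Schwann, myelin and oligodendrocyte genes, with SE as bars. Diamonds are S100b, Pmp22, Cnp and Cspg4, and colours mark genes that rose (red), fell (blue) or did not pass (grey). S100b at -1.98 lies among the genes that fell most, Pmp22 and Cnp near 0, and Cspg4 at 0.94 below Tfap2a and Adgrg6.

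Genes of the transcriptional control of Schwann cell myelin fell more often than they rose. Of 20 listed, 15 were tested, 9 fell, 2 rose and 4 did not pass (median -0.15). This is 73.3% called, beside 59.3% of all genes tested. After Egr2, the members with the smallest p were Zeb2, a repressor of inhibitory signals, Srebf1, which controls lipid synthesis, and the injury-response factor Jun, which fell 1.79-fold, 1.55-fold and 1.30-fold. The TEAD factors and their coactivators, which are known to act on Pmp22, were named after their values were seen. All 4 of this kind in the list fell, where 29.5% of all tested genes were called lower. Because they were singled out with their values known, the 2 figures together are no test of these factors as a group. Of the TEAD genes the list held only Tead1 and Tead4. The falls of Yap1 and Tead1 were small, 1.11-fold and 1.10-fold. The part of these factors in the fall of Pmp22 was not tested. Tead4 went from 13.4 ± 0.375 to 7.37 ± 0.709 CPM (SD, n = 3; edgeR adjusted p = 1.30e-06). Tead1 went from 408 ± 16.1 to 370 ± 12.1 CPM (SD, n = 3; edgeR adjusted p = 0.0106, and 0.0527 without EMSC replicate 2 or 0.0754 without NPS-EMSC replicate 3), Yap1 from 330 ± 8.71 to 297 ± 5.96 and Wwtr1 (TAZ) from 61.3 ± 1.90 to 47.0 ± 3.39. In the list of neuregulin, laminin and other axonal signals, 6 of 17 tested genes rose, 7 fell and 4 did not pass (median 0.03). Lama2, the laminin chain of the Schwann cell basal lamina, fell 3.53-fold from 609 ± 49.1 CPM, and its receptor chain gene Itgb4 fell 6.26-fold, while Itgb1 rose 1.43-fold.

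Genes of myelin lipid metabolism moved in both directions. Of 14 tested, 5 fell, 4 rose and 5 did not pass (median -0.10). The fatty acid and sphingolipid synthesis genes Scd2, Elovl6 and Sptlc2 fell 1.78-fold, 1.83-fold and 1.45-fold, Scd2 from 1362 ± 65.4 to 765 ± 56.1 CPM (SD, n = 3). Galc, the lysosomal enzyme that degrades the myelin lipid galactosylceramide, rose 2.36-fold from 13.1 ± 0.670 CPM. Fa2h, which hydroxylates the fatty acids of myelin lipids and was named after its values were seen, had 11, 1 and 1 reads in EMSC and 90, 49 and 35 in NPS-EMSC, and it rose as well (log2 fold change 3.31, SE 0.58, edgeR adjusted p = 3.24e-05). Of the genes for handling Mbp messenger RNA and its kinases, 5 of 10 tested fell and 2 rose (median -0.15). Fyn, the kinase that releases Mbp translation in oligodendrocytes, fell 1.30-fold, and the motor gene Kif5b rose 1.35-fold.

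The relatives of S100b mostly fell as well. Of 10 tested genes in the S100 list, which includes the binding protein gene S100pbp, 6 fell, 1 rose and 3 did not pass (median -0.57). Called genes were thus 70% of those tested, beside 59.3% of all genes tested (29.7% higher and 29.5% lower). S100a10 fell 2.45-fold from 292 ± 14.0 CPM and S100a4, a gene of motile mesenchymal cells, fell 2.26-fold from 788 ± 32.7 CPM (SD, n = 3). S100g, the calcium carrier calbindin-D9k, had 0, 1 and 1 reads in EMSC and 194, 99 and 251 in NPS-EMSC (log2 fold change 6.14, SE 0.44). Per length S100b was a minor member, as S100a6 stood 202 ± 19.4 times above it in EMSC and 689 ± 47.7 times in NPS-EMSC. Of 10 genes for S100B binding partners and its receptor, 6 fell and 2 rose (median -0.27), with the annexin gene Anxa2 down 3.39-fold from 638 ± 7.01 CPM.

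The epithelial membrane protein genes, the closest relatives of Pmp22, fell in the same direction. Emp1 fell by 0.79 on the log2 scale (SE 0.05), with 478 ± 22.3 CPM in EMSC and 276 ± 14.1 in NPS-EMSC (SD, n = 3). Emp3 fell by 0.85 (SE 0.05), with 149 ± 4.31 and 82.6 ± 3.02 CPM. Emp2 had a log2 fold change of -0.18 (edgeR adjusted p = 0.0384) with overlapping groups, and its call was lost under 7 alternatives, among them leaving out EMSC replicate 1 (adjusted p = 0.112), EMSC replicate 2 (0.0922), NPS-EMSC replicate 1 (0.296) or NPS-EMSC replicate 3 (0.0527). The more distant Tmem47 rose by 0.16, and this call was lost in the 3 fits on FPKM values (adjusted p = 0.0515 to 0.0632). Per length Emp1 exceeded Pmp22 in every library, by 1.94 ± 0.108 times in EMSC and 1.49 ± 0.00794 times in NPS-EMSC. Among other genes first named for growth arrest or stress of fibroblasts, 6 of 9 tested fell and 1 rose (median -0.88). This is 77.8% called, beside 59.3% of all genes tested. Gas1 fell 3.44-fold, Gas6, a ligand of TAM receptors, 3.01-fold and Cavin2 3.02-fold, while Ddit3 (CHOP) rose 1.86-fold.

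Intermediate filament genes moved in both directions beside the near absence of Gfap. Of 10 tested, 4 fell, 3 rose and 3 did not pass (median 0.08). This is 70% called, beside 59.3% of all genes tested. Vim, the filament of mesenchymal cells, rose from 4554 ± 179 to 5670 ± 286 CPM (SD, n = 3), Synm, a filament gene of muscle and astrocytes, rose 5.22-fold, and Nes (nestin) fell from 12.2 ± 1.25 to 6.07 ± 0.212 CPM. Among 13 tested astrocyte genes 8 fell and 3 rose (median -0.68), so that 84.6% were called. The nuclear factor I genes Nfia and Nfib fell 2.13-fold and 2.03-fold, and Gja1, connexin 43, rose from 862 ± 14.0 to 1728 ± 8.45 CPM.

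Partners of NG2 moved in both directions. Of 15 tested, 7 rose, 6 fell and 2 did not pass (median 0.11). This is 86.7% called, beside 59.3% of all genes tested. Itga3, an integrin chain that binds NG2, rose 3.34-fold, and Sdcbp (syntenin) and Lgals3 (galectin-3) rose 1.64-fold and 1.74-fold. Pdgfra, the growth factor receptor that accompanies NG2 on oligodendrocyte precursors, fell by 0.95 on the log2 scale (SE 0.05), with 1617 ± 109 CPM in EMSC and 837 ± 22.9 in NPS-EMSC (SD, n = 3). Named after their values were seen, the collagen VI genes Col6a1 and Col6a2, which encode an NG2 ligand, fell by 0.31 and 0.52 on the log2 scale. The surface protease gene Adam10 and the scaffold gene Mpdz fell by 0.50 and 0.32. Others of these kinds in the list did not fall. The scaffold gene Grip1 and the surface protease gene Mmp14 rose by 1.24 and 0.44. The collagen VI gene Col6a3 was not called (log2 fold change -0.07, edgeR adjusted p = 0.243). Cspg4 and Pdgfra thus changed in opposite directions by about the same factor, 1.91-fold and 1.93-fold.

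Most tested markers of mural cells, which also carry NG2, were higher in NPS-EMSC, but not all. Of 12 listed, 10 were tested, 6 rose, 2 fell and 2 did not pass (median 1.23). Of all genes tested, 29.7% were called higher and 29.5% lower. The summed level went from 1019 to 1128 FPKM in EMSC to 3149 to 3315 in NPS-EMSC. Acta2, Tagln and Anpep carried most of this rise, increasing 5.20-fold, 3.10-fold and 2.99-fold. Cd248 fell 3.10-fold, and Notch3, named after its values were seen, fell 3.32-fold. Of the more selective pericyte genes, Rgs5 had 0 reads in EMSC and 1, 0 and 4 in NPS-EMSC. In bulk samples fewer cells of a type and less RNA per cell cannot be told apart, and the part of mural genes in the rise of Cspg4 was not tested.

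**Figure D4:**
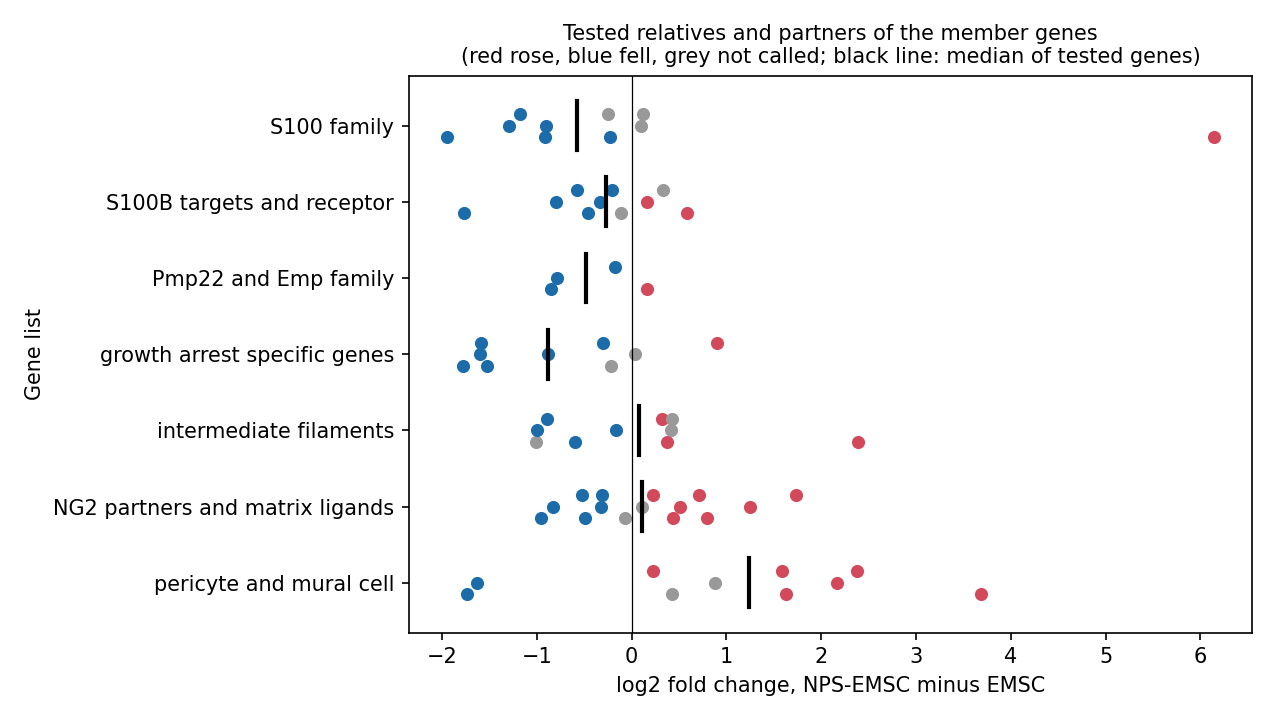
Log2 fold changes, NPS-EMSC minus EMSC, of tested genes (points) in 7 lists of relatives and partners of the 6 genes, with the list median as a black line. Mural cell genes have a median of 1.23, and growth arrest genes one of -0.88. The single point beyond 6 is S100g.

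Most tested leukocyte markers were lower in NPS-EMSC, but not all. Of 10 listed, 8 were tested, 6 fell and 2 rose (median -2.43), and the summed level was 52.8 to 58.9 FPKM in EMSC and 24.6 to 26.3 in NPS-EMSC. Lyz2, lysozyme, fell 13.5-fold from 52.5 ± 7.70 CPM. It made up most of the EMSC sum, at a mean of 38.8 FPKM against 2.76 in NPS-EMSC. Ptprc (CD45), the general leukocyte gene, had 33, 20 and 41 reads in EMSC and 0, 1 and 0 in NPS-EMSC. Cd14 went the other way and rose 2.07-fold, from 15.1 to 31.4 CPM. Cd3e had no row. Of 10 neuronal markers 4 were tested, 3 of which fell and 1 rose, and their summed level was 28.9 to 31.5 FPKM in EMSC and 7.97 to 8.54 in NPS-EMSC. Nearly all of this sum was Stmn2, at 29.0 ± 1.35 FPKM in EMSC and 6.95 ± 0.492 in NPS-EMSC (SD, n = 3). Stmn2 fell 4.03-fold from 52.8 CPM, while Tubb3 rose 2.48-fold from 0.574 CPM. Rbfox3 had 5, 0 and 1 reads in EMSC and 0 in NPS-EMSC. Endothelial genes were at 0.948 to 1.22 FPKM in sum in EMSC and 0.680 to 0.873 in NPS-EMSC, with 0 of 4 tested called by edgeR, DESeq2 or limma-voom at an adjusted p under 0.05, and 1 by edgeR at an unadjusted p under 0.05. Of 8 epithelial genes listed, 2 were tested, and both rose. Krt8 went from 3.46 to 5.75 CPM and Krt18 from 0.691 to 5.98. The untested Krt5 went the other way, with 7, 3 and 18 reads in EMSC and 0 in NPS-EMSC. Epcam and Cdh1 had at most 4 reads in any library of either group. The part of these cells in the changes of the 6 genes was not tested.

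The tested genes whose pattern over the 6 libraries was most like that of each gene were found from the root mean square difference of centred log2 CPM, among 10361 candidates. For S100b they were Chi3l1, Add3 and Dhrs4 (differences of 0.0701, 0.0736 and 0.0749), of which Chi3l1 went from 65.8 to 16.5 CPM and Dhrs4 from 21.5 to 5.58, and Add3 had a log2 fold change of -1.91. For Pmp22 they were Snx5, Xbp1 and Qpctl (0.0139, 0.0199 and 0.0213), and for Cnp Zbtb45, Smim10l1 and Elac2 (0.0258, 0.0261 and 0.0293). None of the last 3 passed the test itself, with adjusted p of 0.156, 0.149 and 0.169. The genes most like Cspg4 were Tap1, Usp18 and Pdlim3 (0.0317, 0.0337 and 0.0422), of which Tap1 and Usp18 rose by 0.94 and 0.90 on the log2 scale. With 6 libraries in 2 groups, genes with a group difference of the same size are alike by this measure.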

How the data were processed

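Libraries were prepared from total RNA isolated with TRIzol, using a VAHTS Universal V6 kit, per the labels' protocols. The authors deposited raw read counts per gene and FPKM values for 6 libraries. R 3.2.0, DESeq, HTSeq, StringTie, HISAT2 and fastp are listed, without a role, per the submitters' processing notes. Build, annotation and strand setting: not given in the sources used here. The deposited FPKM values equal the counts divided by library total and 1 fixed length per gene, to within 0.1 percent, for all 20653 genes, and are no separate measurement.

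edgeR 4.0.16 (R 4.3.3) gave quasi-likelihood tests of the counts (TMM scaling, robust fit, filterByExpr with minimum count 10 and minimum total 15, prior count 2) and Benjamini-Hochberg adjustment over 14505 genes, with calls at an adjusted p under 0.05. A positive log2 fold change means higher in NPS-EMSC. The SE was taken as its size over the square root of the F statistic. CPM uses TMM-scaled totals. DESeq2 1.42.0 and limma 3.58.1 served as alternatives, and FPKM was tested with limma as log2(FPKM + 1) and log2(FPKM + 0.1) after a minimum of 0.5 in 3 libraries, the former also without it. Other scaling factors, low-count filters, a stricter threshold, a replicate block and leaving out each library were also tried. In counts simulated for this comparison with 14315 tested genes, the procedure recovered 46% of 1.2-fold, 82% of 1.5-fold, 84% of 2-fold and 100% of 4-fold changes, with 50 genes of each size. Only these genes were changed, all drawn from genes of at least 1 CPM, whereas 59.3% of genes were called in the data. The recovery in the data may therefore differ from these rates.

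The 6 genes and the gene lists were chosen with earlier results of these data known. Named genes are the 6 genes, 11 defining glial markers, up to 4 called genes of each list by smallest p, and the 3 tested genes of at least 5 CPM most like each tested gene. Genes outside this rule were named after their values were seen: Nps, Cd9, Cd82, Mtmr2, Litaf, Tead1, Tead4, Yap1, Wwtr1, Rgs5, S100a6, S100pbp, Col6a1, Col6a2, Adam10, Mpdz, Cd3e, Rbfox3, Fa2h, Mcam, Notch3, Grip1, Mmp14, Col6a3, Krt5, Epcam and Cdh1. Some genes that the rule names are not reported here, though the lists' counts and medians include them. Dip2a, Cimap1c, LOC134480805 and LOC108348833 were named for their overlap.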

Additional observations from a re-analysis of the deposited data

How the results depend on the processing

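The 4 tested genes kept their direction in all 18 alternatives. S100b ranged from -2.04 to -1.62 in log2 fold change, Pmp22 from -0.46 to -0.39 and Cspg4 from 0.75 to 0.99, and all 3 stayed past the threshold in each. Cnp ranged from -0.22 to -0.12 and lost its call at an adjusted p under 0.01 and without EMSC replicate 1 or NPS-EMSC replicate 1, so 3 of the 6 genes were called there and 4 in the other settings. The values under alternatives were compared for the tested genes named here or by the naming rule, except Notch3, Grip1, Mmp14 and Col6a3. Of these values 1899 kept their direction and side of the threshold, and no sign reversed. The call was lost in 17 (Cnp, Emp2, Tmem47, Tead1 and Cd82) and gained in 5 (Smim10l1, S100pbp and Odf3l1). The scaling by library totals without factors was chosen after seeing the data. Leaving out 1 library gave 7870 to 8341 called genes, against 8600. With the replicate number as a block 8588 genes were called, and the block changed no call among the 6 genes. Same-numbered libraries did not deviate together (correlations of -0.0389, 0.0460 and 0.0356), so the numbers were not treated as pairs. With upper-quartile factors 3998 genes were higher and 4662 lower, and on library totals 3879 and 4758, against 4314 and 4286. Depth limits what can be said of Mbp and Gfap, and intervals cover counting error only.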

Other observations

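Mcam (CD146), a surface gene of mural and mesenchymal stem cells that was named after its values were seen, had 35, 61 and 33 reads in EMSC and 494, 635 and 527 in NPS-EMSC.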
